A study of Mus musculus with 6 samples.

Results

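The genes described here encode the enzymes that repair damaged or mispaired single bases and bulky lesions in DNA. They were chosen by name, as the 43 listed genes of base excision, nucleotide excision and mismatch repair, among the 55377 genes in each count table, and each matched 1 row. By pathway they comprise 21 genes of base excision and single-strand break repair, 14 of nucleotide excision repair, 5 of mismatch repair and 3 of direct reversal. Primary cultures of chondrocytes from mouse articular cartilage were transfected with an siRNA against Irf1 (siIRF1, 3 libraries) or a control siRNA (siNC, 3 libraries), and total RNA was taken 36 h later. The product of Irf1 is an interferon-inducible transcription factor, and the series as titled concerns its deficiency, DNA damage and osteoarthritis. Strain, age, sex and the siRNA sequences are not given in the labels, which also do not say whether the replicates were separate cultures, so the spread behind every p-value is that between these libraries and may be technical.

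In base excision repair a glycosylase cuts out an oxidised, deaminated or alkylated base, an endonuclease opens the strand at the empty site, and a polymerase and a ligase close the gap with the help of PARP enzymes and XRCC1. In nucleotide excision repair a distorted stretch of helix is recognised, opened by the TFIIH complex, cut on both sides and replaced. Mismatch repair removes bases that replication paired wrongly, with MutS proteins that find the mismatch and MutL proteins that direct the excision. Chondrocytes of adult cartilage divide rarely and are long-lived, and oxidative DNA damage in them is known to increase with age and in osteoarthritis.

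The libraries held 22349142 to 26752065 counts with siIRF1 and 28565096 to 29282494 with siNC, and the 43 genes took 0.218% to 0.229% of the counts with siIRF1 and 0.214% to 0.229% with siNC. Levels are CPM, in which counts are scaled to a common library total, here after TMM scaling, and fold changes are siIRF1 over siNC. Irf1 itself had 5.64, 5.08 and 6.02 CPM in the siIRF1 libraries, against 11.1, 12.6 and 12.2 CPM in the siNC libraries, so 46.5% of its transcript was left (log2 fold change −1.10, SE 0.11, adjusted p = 3.0e-06 in edgeR). All 10 chondrocyte markers were detected, and the sum of their levels lay between 88430 and 115200 CPM with siIRF1 and between 88250 and 115300 CPM with siNC, mostly Col2a1. Of these markers 1 was called: Hapln1, which encodes a link protein of the cartilage matrix, fell to 48.7% of the siNC level (log2 fold change −1.04, adjusted p = 1.6e-08). The 5 fibroblast markers summed to 2643 to 3390 CPM with siIRF1 and 3690 to 4624 CPM with siNC, mostly Col1a1, which fell. Pdgfra gave a log2 fold change of 0.01 and Thy1 −0.30, neither called, and Dpt and Pi16 were not tested. The 4 osteoblast markers summed to 53.7 to 79.7 CPM with siIRF1 and 82.3 to 108.1 CPM with siNC, and 0 were called. Ibsp made up most of this sum (log2 fold change −0.70, adjusted p = 0.182 in edgeR). Bglap went the other way (1.13, adjusted p = 0.0880), Sp7 gave −0.01, and Dmp1 was not tested. The 5 markers of macrophages and other leukocytes summed to 10.1 to 10.9 CPM with siIRF1 and 7.66 to 10.2 CPM with siNC. Of these, Cd68 rose, at 9.57, 8.93 and 8.50 CPM with siIRF1 and 7.38, 5.53 and 7.53 CPM with siNC (log2 fold change 0.40, adjusted p = 0.0316). Lyz2 went the other way, with all siIRF1 libraries below all siNC libraries, but was not called (log2 fold change −0.69, adjusted p = 0.0566 in edgeR). Csf1r and Ptprc were not tested, and their mean levels were lower with siIRF1 (0.29 and 0.12 CPM) than with siNC (0.38 and 0.23 CPM). Adgre1 was at 0 in all 6 libraries, and Ptprc lay between 0.0854 and 0.405 CPM. Markers of erythroid cells were at 0 in all 6 libraries. The part of these markers in the results below was not tested.

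Repair genes of all these pathways were expressed in both groups, and their levels differed little between them. All 43 passed the filter on low counts and were tested. With siIRF1, 5 of them fell (Lig3, Parp2, Ercc3, Ercc4 and Mgmt) and 2 rose (Gtf2h1 and Ercc1) at an adjusted p under 0.05 in edgeR's quasi-likelihood test, which is 16.3% of the members, against 22.4% of all 14683 genes tested. By direction, 12.0% of all genes tested fell and 10.4% rose (1767 and 1522 genes), a balance that turned round with upper-quartile scaling, to 1548 lower and 1853 higher. The counts at an unadjusted p under 0.05 were 9 lower and 7 higher among the 43 members, against 2594 and 2449 of the 14683 genes tested. The median log2 fold change was −0.02 over the 43 genes and 0.001079 over all genes tested. No member changed by as much as 1.5-fold, which 1274 of all genes tested did. The groups did not overlap for 19 of the 43 genes, 12 with all siIRF1 libraries below all siNC libraries and 7 the other way, against 38.1% of all genes tested. In these bulk cultures, fewer cells that express a gene and less of its RNA per cell cannot be told apart.

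**Figure D1:**
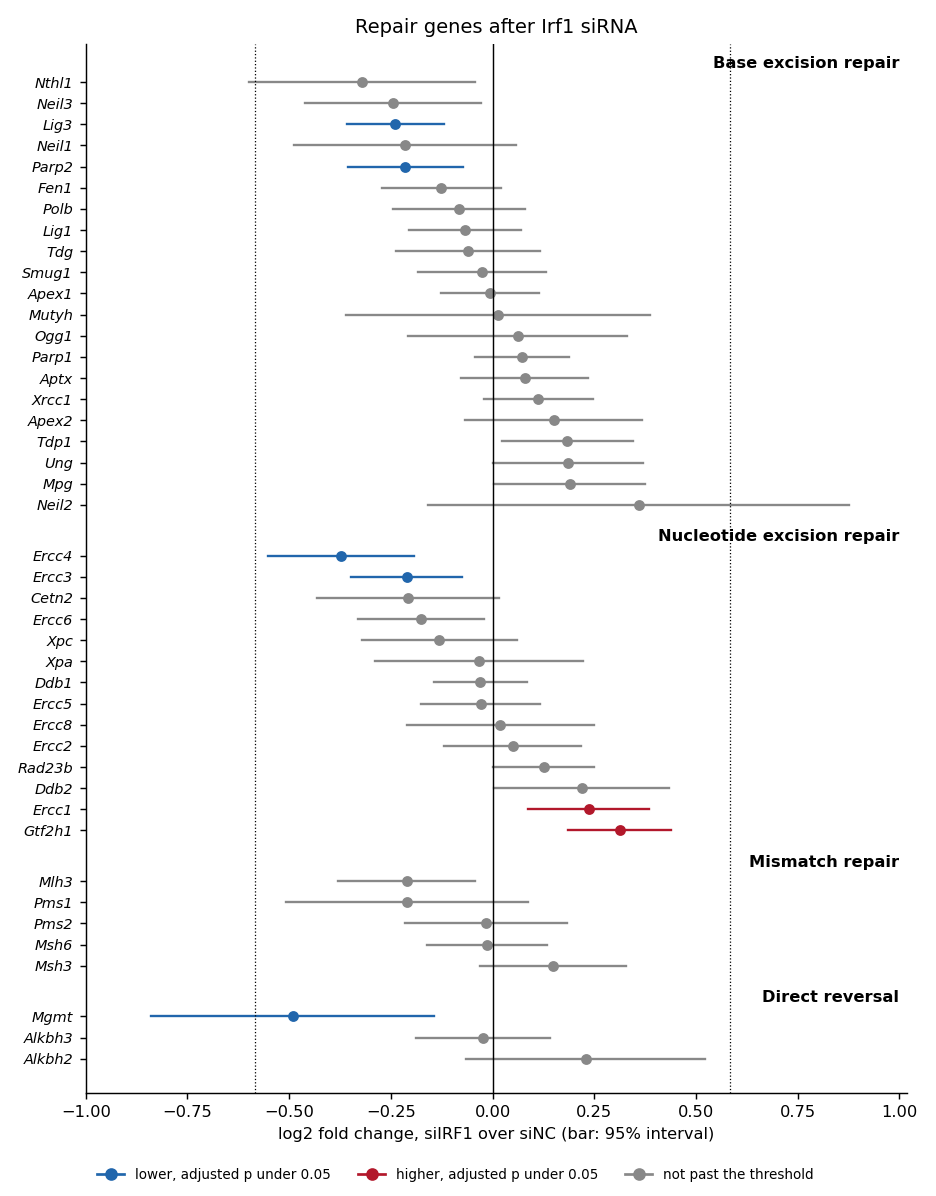
Log2 fold change of each of the 43 repair genes, siIRF1 over siNC (horizontal axis), with its 95% interval, ordered within each pathway; dotted lines mark a fold of 1.5. Mgmt at −0.49 and Ercc4 at −0.37 lie farthest to the left among the called genes, and Gtf2h1 at 0.31 and Ercc1 at 0.24 are the 2 genes called higher.

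For the 36 members that did not pass the threshold the data set limits on any difference. In 34 of them the 95% interval of the log2 fold change lay inside 1.5-fold in both directions. The exceptions were 2 DNA glycosylase genes, Nthl1 with an interval of −0.60 to −0.04 and Neil2 with −0.16 to 0.88. For Nthl1 the estimate itself was −0.32, with all siIRF1 libraries below all siNC libraries, so a fall beyond 1.5-fold stays within its interval. Neil2 had the fewest counts of all members, 219 over the 6 libraries.

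Some members carry short sequence words in their transcripts, and the part of these words in their values was not tested. An earlier scan of these same libraries found that the word ACTGATC with its shifted form CTGATCA, as well as the word GCTATCT with its shifted form CTATCTA, in 3′ untranslated regions (3′ UTRs) went with lower levels. The members' own values were among those that chose the words, so the matches below are a description and no support. In the GENCODE annotation for GRCm38, 3 of the 43 members (6.98%) have at least 1 of these words in that region, searched on the transcript strand, against 2692 of the 12815 tested genes with a 3′ UTR. Members' 3′ UTRs are shorter, with a median of 563 bases against 1199 for all these genes. Over the coding sequence, 6 members (14.0%) hold a word, against 21.9% of tested genes. The sites shown are all those in 3′ UTRs and the coding site of Lig3, which fell, with the word in capitals and 9 bases on either side.
Ercc4, 3′ UTR, chr16:13148429-13148453, plus strand: caggcctgcACTGATCcattttcaa
Ercc6, 3′ UTR, chr14:32577565-32577589, plus strand: aagacacttGCTATCTgtcaaatca
Ercc6, 3′ UTR, chr14:32578855-32578879, plus strand: tcaagaacaGCTATCTttgaccaga
Ung, 3′ UTR, chr5:114138871-114138895, plus strand: atgagcttcCTGATCAcaaaggggg
Lig3, coding sequence, chr11:82789842-82789866, plus strand: attattcggCTGATCAaacatgatc
Of the 3 genes with a word in the 3′ UTR, Ercc4 fell, whereas Ercc6 with 2 copies had a value of −0.18 on the log2 scale (adjusted p = 0.0999 in edgeR) and Ung one of 0.19 (adjusted p = 0.140). Lig3 was picked from the genes with a coding word as one that fell, so its fall is no support. The other coding sites lie in Ercc3, which fell, and in Apex2, Xpc, Ercc5 and Pms2, which did not pass the threshold. The remaining called genes, Parp2, Mgmt, Gtf2h1 and Ercc1, hold none of the words in either region.

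The promoter windows of the members, from 250 bases before to 50 bases after the start in RefSeq's GRCm38.p6 annotation, were searched on both strands for an interferon-response motif, GAAA repeated after a gap of 2 bases. The 37 members found in that annotation had 44 windows. Of these windows 2 held it, those of Tdp1 and Xrcc1, while 3.44% of all 32851 windows did. Neither gene passed the threshold, with log2 fold changes of 0.18 for Tdp1 (adjusted p = 0.0970) and 0.11 for Xrcc1 (adjusted p = 0.226). The site of Tdp1, which begins 204 bases before the start and reads in the antisense direction (motif in capitals), is shown because Irf1 is the factor that was lowered.
Tdp1, promoter, chr12:99884304-99884333, plus strand: ctaccacagcTTTCTGTTTCtctcttcttt

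In base excision repair and its single-strand break branch, Lig3 and Parp2 fell and 0 of the 21 genes rose in edgeR. At an unadjusted p under 0.05 the counts were 4 lower and 3 higher, against 2594 and 2449 of the 14683 genes tested. DESeq2 called 1 lower (Lig3) and 0 higher. Parp2 acts in sensing the strand break and Lig3 in sealing it, and no glycosylase passed the threshold. Whether the calls go with a step of the pathway was not tested. The share called was 9.52%, against 22.4% of all genes tested, and the median log2 fold change of the 21 genes was −0.01.

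Lig3 (ENSMUSG00000020697.17, chr11:82781108-82804274 in GRCm38) encodes DNA ligase III, which seals the nick and also serves the mitochondrial genome. It had 58.1, 58.0 and 60.9 CPM in the siIRF1 libraries, against 70.1, 67.9 and 71.0 CPM in the siNC libraries. The groups did not overlap, and all 3 siIRF1 libraries lay below the lowest siNC library. Its log2 fold change was −0.24 (SE 0.06, adjusted p = 0.00615 in edgeR), which left 84.7% of the siNC level, and the call held in all 13 alternatives tried. An exon stretch of Rffl on the opposite strand covers 27.9% of the exon bases of Lig3, and Rffl itself was at 0.02 on the log2 scale (adjusted p = 0.932).

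Parp2 (ENSMUSG00000036023.7, chr14:50807841-50821301) encodes a poly(ADP-ribose) polymerase that, like its larger relative PARP1, is activated by strand breaks. Its level was 28.5, 29.1 and 27.4 CPM with siIRF1 and 33.9, 32.5 and 32.1 CPM with siNC, without overlap. The log2 fold change of −0.21 (SE 0.07) had an adjusted p of 0.0292 in edgeR. That call was lost without siIRF1 replicate 1 (adjusted p = 0.0524) or 3 (0.117) and without siNC replicate 1 (0.106) or 2 (0.0678), and also with DESeq2 (0.0529) and upper-quartile scaling (0.0520). Parp1 had 104.1, 99.5 and 105.3 CPM with siIRF1 and 97.0, 97.9 and 99.0 CPM with siNC, a log2 fold change of 0.07 with a 95% interval of −0.04 to 0.19 (adjusted p = 0.375). Every siIRF1 library lay above every siNC library for Parp1 and below for Parp2. Groups without overlap were found in 38.1% of all genes tested, Parp1 did not pass the threshold, and it was added after its values were seen.

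The 10 glycosylase genes encode the enzymes that recognise the damaged base. At an unadjusted p under 0.05 they included Nthl1 and Neil3 on the lower side and Ung and Mpg on the higher side, and 0 passed after adjustment in edgeR or DESeq2. Nthl1, which removes oxidised pyrimidines, had 4.92, 4.76 and 3.93 CPM with siIRF1 and 5.56, 5.50 and 5.94 CPM with siNC (log2 fold change −0.32, adjusted p = 0.0921). Neil3, a glycosylase of dividing cells, had 7.49, 8.39 and 8.58 CPM with siIRF1 and 10.1, 9.75 and 9.22 CPM with siNC (log2 fold change −0.24, adjusted p = 0.101). For both, the siIRF1 libraries all lay below the siNC libraries.

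Ung, which removes uracil, had 22.1, 19.6 and 18.7 CPM with siIRF1 and 17.8, 18.9 and 16.4 CPM with siNC (log2 fold change 0.19, adjusted p = 0.140). Mpg, which removes alkylated purines, had 22.8, 19.8 and 19.6 CPM with siIRF1 and 17.8, 19.8 and 16.8 CPM with siNC (log2 fold change 0.19, adjusted p = 0.136). In these genes siIRF1 replicate 1 was the highest library and the groups overlapped. Ogg1, the main enzyme against oxidised guanine, gave a log2 fold change of 0.06 with a 95% interval of −0.21 to 0.33, and Mutyh, which removes adenine paired with oxidised guanine, gave 0.01 with −0.36 to 0.39. The remaining glycosylase genes gave −0.22 for Neil1, 0.36 for Neil2, −0.06 for Tdg and −0.03 for Smug1.

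Of the genes that act after the glycosylases, those other than Lig3 and Parp2 did not pass the threshold. Apex1, the main endonuclease at sites without a base and the member of this pathway with the highest level per exon length, had 58.4, 59.6 and 60.1 CPM with siIRF1 and 58.0, 59.3 and 61.5 CPM with siNC. The groups overlapped, and its log2 fold change was −0.01 with a 95% interval of −0.13 to 0.11 (adjusted p = 0.950). In the annotation 70.8% of the exon bases of Apex1 are shared with Pip4p1 on the opposite strand, which rose by 0.27 on the log2 scale (adjusted p = 0.00750), and the counting may have divided such reads. Its relative Apex2 gave 0.15 (adjusted p = 0.326). Polb, the gap-filling polymerase, gave −0.08 (−0.24 to 0.08), and the scaffold gene Xrcc1 gave 0.11 (−0.02 to 0.25).

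For the flap endonuclease Fen1 and the replicative ligase Lig1, which complete long patches, the log2 fold changes were −0.13 (adjusted p = 0.211) and −0.07 (adjusted p = 0.497). Both enzymes also act in replication. An S phase and mitosis list of 16 genes, chosen with earlier results of these data known, gave 8 lower and 0 higher in edgeR. Those lower were Rrm1, Rrm2, Ccnb1, Cdk1, Top2a, Mki67, Bub1 and Aurkb. The S phase genes Mcm2 to Mcm7, as well as Tyms and Ccna2, did not pass the threshold. Their log2 fold changes ran from −0.17 (Mcm5) to 0.03 (Mcm4). The share of the list called was 50%, against 22.4% of all genes tested, of which 12.0% fell and 10.4% rose. At an unadjusted p under 0.05 the counts of the list were 9 lower and 0 higher, against 2594 and 2449 of the 14683 genes tested. The median log2 fold change of the list was −0.17. Over the alternatives that keep all libraries 7 to 9 of its genes were lower. The S phase count was 5 without siIRF1 replicate 1 or 3 or without siNC replicate 3. The part of cell division in the values of Neil3, Fen1 and Lig1 was not tested. Of the genes that clean DNA ends, Tdp1, which frees trapped topoisomerase, had 28.1, 24.4 and 25.5 CPM with siIRF1 and 22.0, 23.7 and 22.8 CPM with siNC, all siIRF1 libraries above siNC (log2 fold change 0.18, adjusted p = 0.0970). Aptx, which removes adenylate from failed ligation, gave 0.08 (adjusted p = 0.488).

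**Figure D2:**
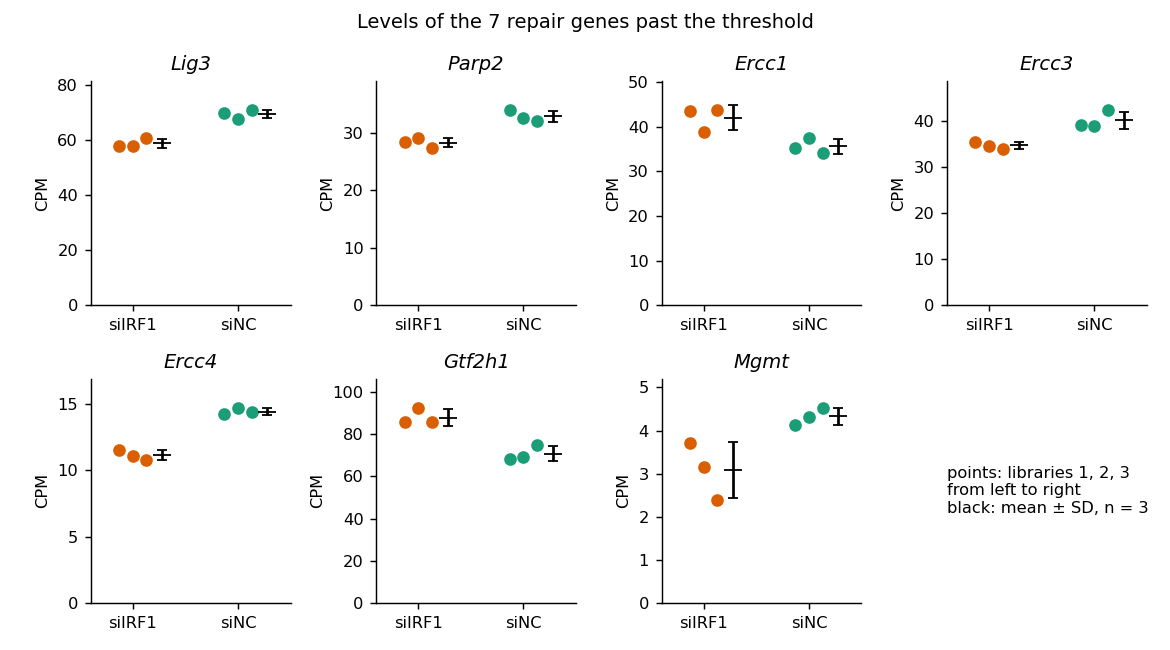
CPM in each library of the 7 repair genes past the threshold, with siIRF1 (orange) left of siNC (green) and the mean ± SD of 3 libraries in black; each vertical axis starts at 0. The groups do not overlap in any of the 7 panels, and the siIRF1 libraries of Mgmt spread over 3.70, 3.16 and 2.39 CPM.

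In nucleotide excision repair, 2 of 14 genes fell and 2 rose, with a median log2 fold change of −0.03. The share called was 28.6% of the list, against 22.4% of all genes tested. DESeq2 also called 2 lower and 2 higher. At an unadjusted p under 0.05 the counts were 3 lower and 4 higher, against 2594 and 2449 of the 14683 genes tested. Of the 4 genes called in edgeR, Ercc4 and Ercc1 encode the subunits of 1 nuclease, and Ercc3 and Gtf2h1 subunits of TFIIH. Of the nuclease genes Ercc4 fell and Ercc1 rose, and of the TFIIH genes Ercc3 fell and Gtf2h1 rose. Ercc2 and the 7 TFIIH genes of the further list (log2 fold changes of −0.12 to 0.17) did not pass the threshold.

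Ercc4 (ENSMUSG00000022545.14, chr16:13109684-13150617) encodes XPF, the catalytic subunit of the nuclease that cuts on the 5′ side of the lesion. It had 11.6, 11.1 and 10.8 CPM with siIRF1 and 14.2, 14.7 and 14.4 CPM with siNC, with a gap between the groups far wider than the spread within them. The log2 fold change was −0.37 (SE 0.08, adjusted p = 0.00503 in edgeR), which left 77.2% of the siNC level, and the call held in all 13 alternatives. Its transcript carries the ACTGATC site printed above, whose part in this value was not tested.

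Ercc1 (ENSMUSG00000003549.10, chr7:19344778-19356524) encodes the partner that XPF needs for binding DNA and for stability. It had 43.6, 38.8 and 43.7 CPM with siIRF1 and 35.3, 37.4 and 34.1 CPM with siNC. The groups did not overlap, though siIRF1 replicate 2 was close to siNC replicate 2. The log2 fold change was 0.24 (SE 0.07, adjusted p = 0.0231), a call lost without siIRF1 replicate 1 (adjusted p = 0.0697) or 3 (0.113) and without siNC replicate 1 (0.0717) or 3 (0.0780).

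Gtf2h1 (ENSMUSG00000006599.14, chr7:46796103-46823800) encodes a core subunit of TFIIH, the complex that opens the helix around the lesion and also serves transcription. It had 85.5, 92.4 and 85.6 CPM with siIRF1 and 68.4, 69.1 and 74.8 CPM with siNC, and every siIRF1 library exceeded every siNC library. At a log2 fold change of 0.31 (SE 0.06, adjusted p = 0.00147) it had the smallest p of all 43 members and ranked 923 of the 14683 genes tested. The call held in all 13 alternatives.

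Ercc3 (ENSMUSG00000024382.14) encodes XPB, an ATP-driven translocase of TFIIH. It had 35.4, 34.6 and 34.0 CPM with siIRF1 and 39.1, 38.9 and 42.3 CPM with siNC, without overlap. The log2 fold change of −0.21 (SE 0.06, adjusted p = 0.0276) was no longer past the threshold without siIRF1 replicate 3 (adjusted p = 0.0987) or without siNC replicate 3 (0.111). Ercc2, which encodes XPD, the second helicase of TFIIH, gave 0.05 with a 95% interval of −0.12 to 0.22 (adjusted p = 0.700).

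The lesion sensors did not pass the threshold. Ddb1, an adaptor of CUL4 ubiquitin ligases that also finds ultraviolet damage with Ddb2, had the highest level per exon length of all 43 members, 204.5 ± 4.88 CPM per kb with siIRF1 and 208.9 ± 3.39 CPM per kb with siNC (SD, n = 3). Its levels were 898, 900.0 and 937 CPM with siIRF1 and 914, 939 and 941 CPM with siNC, which overlapped (log2 fold change −0.03, adjusted p = 0.730). Ddb2, which p53 induces in human cells, had 10.8, 10.3 and 9.27 CPM with siIRF1 and 8.85, 9.01 and 8.24 CPM with siNC, with no overlap (log2 fold change 0.22, adjusted p = 0.137). Exons of Acp2 on the opposite strand, whose log2 fold change was −0.48 (adjusted p = 2.3e-05), cover 26.7% of the exon bases of Ddb2.

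Xpc, the sensor of helix distortion, gave −0.13 (adjusted p = 0.324), and its partner Cetn2 gave −0.21 (adjusted p = 0.179), which passed the threshold only without siIRF1 replicate 2 (−0.33, adjusted p = 0.0270). Rad23b, which stabilises XPC, had 298, 318 and 314 CPM with siIRF1 and 283, 269 and 302 CPM with siNC. One siNC library lay above the lowest siIRF1 library (log2 fold change 0.13, adjusted p = 0.143).

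Ercc6 (CSB) and Ercc8 (CSA), which start repair at stalled RNA polymerase, gave −0.18 and 0.02. Ercc6 had 21.3, 23.6 and 21.9 CPM with siIRF1 and 25.3, 24.4 and 25.8 CPM with siNC, without overlap, at an adjusted p of 0.0999. Xpa, which verifies the lesion, and Ercc5, the nuclease gene for the 3′ cut (XPG), gave −0.03 each, with 95% intervals of −0.29 to 0.22 and −0.17 to 0.12.

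**Figure D3:**
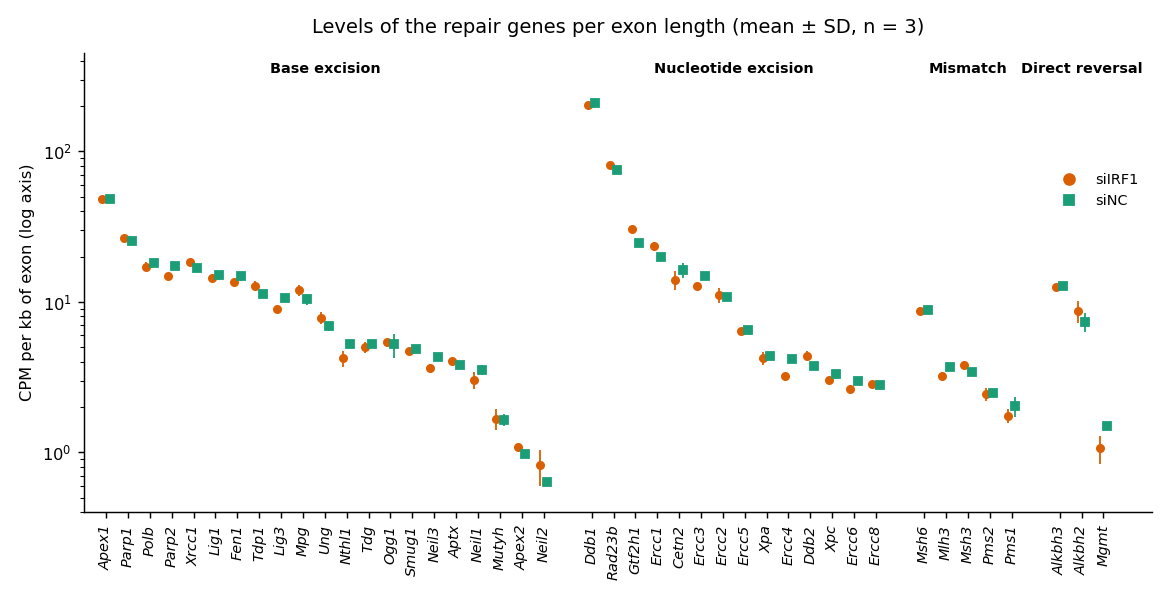
Levels of the 43 genes per kb of exon (log axis), mean ± SD of 3 libraries, siIRF1 as orange circles left of siNC as green squares, ordered within each pathway by the siNC level. Ddb1 at 204.5 with siIRF1 and 208.9 with siNC stands at the top and Neil2 at 0.819 with siIRF1 and 0.633 with siNC at the bottom, and the shifts between groups are small beside the range between genes.

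The ratio of the levels per exon length of 2 partner genes was taken within each library, for 9 pairs chosen after the values were seen, so the ratios are given as a description with no test. Ercc4 over Ercc1 was 0.137, 0.148 and 0.127 with siIRF1 and 0.208, 0.203 and 0.217 with siNC, so the mean ratio with siIRF1 was 65.7% of that with siNC. Within TFIIH, Ercc3 over Gtf2h1 was 0.443, 0.401 and 0.425 with siIRF1 and 0.612, 0.603 and 0.605 with siNC, or 69.7%. The other TFIIH pairs overlapped between the groups, with Ercc3 over Ercc2 at 83.9% and Ercc2 over Gtf2h1 at 83.7% of the siNC mean. Lig3 over Xrcc1 was 0.479, 0.517 and 0.484 with siIRF1 and 0.630, 0.601 and 0.657 with siNC, or 78.4%, and Parp2 over Parp1 was at 82.0%. Among the lesion sensors, Xpc over Rad23b was at 83.5%, Ddb2 over Ddb1 at 119.1% and Xpc over Cetn2 at 106.1%, the last with overlap. A ratio of this kind does not depend on the scaling of the libraries.

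Mismatch repair was represented by 5 genes, of which 0 passed the threshold in edgeR or DESeq2. Of all genes tested, 22.4% passed it in edgeR. The counts at an unadjusted p under 0.05 were 1 lower and 0 higher, against 2594 and 2449 of the 14683 genes tested. Their median log2 fold change was −0.02. Msh6, the MutS subunit for base mismatches and small loops and the member of this pathway with the highest level per exon length, had 34.5, 39.3 and 37.2 CPM with siIRF1 and 37.0, 35.9 and 39.2 CPM with siNC. The groups overlapped fully, and the log2 fold change was −0.01 with a 95% interval of −0.16 to 0.13 (adjusted p = 0.911). Msh3, the MutS subunit for larger loops, was above siNC in every siIRF1 library (log2 fold change 0.15, −0.03 to 0.33, adjusted p = 0.231).

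Of the MutL genes, Mlh3, best known for crossing over in meiosis, had 16.6, 19.1 and 17.6 CPM with siIRF1 and 19.9, 21.3 and 20.6 CPM with siNC. All its siIRF1 libraries were below the siNC libraries. The log2 fold change was −0.21 with an adjusted p of 0.0686, and it passed the threshold only without siIRF1 replicate 2 (−0.27, adjusted p = 0.0382). Pms2, whose product nicks the strand to be removed, gave −0.02 (−0.21 to 0.18). Pms1, whose part in mismatch repair is less clear, gave −0.21 (−0.51 to 0.09) at 4.79 to 5.96 CPM with siIRF1 and 5.42 to 7.29 CPM with siNC.

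Direct reversal, in which a single protein removes the damage without cutting the strand, had Mgmt lower and 0 of 3 genes higher in edgeR. The share called was 33.3%, against 22.4% of all genes tested, of which 12.0% fell and 10.4% rose. The counts at an unadjusted p under 0.05 were 1 lower and 0 higher, against 2594 and 2449 of the 14683 genes tested. DESeq2 called 0 lower and 0 higher. Mgmt (ENSMUSG00000054612.5, chr7:136894614-137130266), which takes alkyl groups off guanine, had 3.70, 3.16 and 2.39 CPM with siIRF1 and 4.14, 4.33 and 4.52 CPM with siNC. These levels rest on 56 to 87 counts per library with siIRF1 and 116 to 134 with siNC. The log2 fold change of −0.49 (SE 0.16) was the largest in size among the members, at an adjusted p of 0.0418.

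That call of Mgmt was the least stable of the 7. It was lost without siIRF1 replicate 2 (adjusted p = 0.0694) or 3 (0.181, where the log2 fold change was −0.35), without any 1 siNC library (0.0639 for replicate 1, 0.0943 for 2 and 0.0951 for 3), with DESeq2 (0.0694) and with upper-quartile scaling (0.0520). The demethylase genes Alkbh2 and Alkbh3, which oxidise methyl groups off bases, gave 0.23 (−0.07 to 0.52) and −0.02 (−0.19 to 0.14). Alkbh3 had 17.9, 18.1 and 16.9 CPM with siIRF1 and 17.4, 17.6 and 18.8 CPM with siNC, which overlapped.

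Other genes of the same pathways, from lists chosen with earlier results of these data known, gave few calls as well. The shares called were 18.2% for base excision and break repair and 12.5% for nucleotide excision repair, against 22.4% of all genes tested. Of 11 other base excision and break repair genes, Poll, a polymerase of the Polb family, fell to 80.4% of the siNC level (log2 fold change −0.31, adjusted p = 0.0254) and Tdp2, which frees trapped topoisomerase of another type, rose by 0.22 (adjusted p = 0.0463). The call of Poll was lost without siIRF1 replicate 2 or 3, without siNC replicate 1 or 3 (adjusted p of 0.0515 to 0.0929) and with DESeq2 (0.0513). The call of Tdp2 was lost without siIRF1 replicate 1 or 2 or siNC replicate 2 or 3 (0.0977 to 0.160), with DESeq2 (0.0633) and with no filter (0.0592).

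Among 16 other nucleotide excision repair genes, Hmgn1 fell and Cul4a rose. Hmgn1, a nucleosome-binding protein that has been tied to transcription-coupled repair, had 114.1, 124.7 and 104.8 CPM with siIRF1 and 201.4, 206.5 and 205.1 CPM with siNC, a fall to 56.1% of the siNC level (log2 fold change −0.83, SE 0.06, adjusted p = 2.4e-07). It was the 1 gene of this list that reached 1.5-fold. Cul4a, the ligase scaffold that Ddb1 joins, had 142.3, 146.9 and 146.4 CPM with siIRF1 and 123.1, 123.6 and 121.0 CPM with siNC (log2 fold change 0.24, adjusted p = 0.00344).

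The 18 genes of strand excision and resynthesis, steps that mismatch repair shares with replication, had a median log2 fold change of −0.12. At an unadjusted p under 0.05 the counts were 6 lower and 0 higher, against 2594 and 2449 of the 14683 genes tested. After adjustment in edgeR 4 were lower and 0 higher, or 22.2% of the list, against 22.4% of all genes tested, of which 12.0% fell. Those that fell were Pold1, the catalytic subunit of polymerase delta (−0.33, adjusted p = 0.00202), Rpa1, which coats single strands (−0.22, adjusted p = 0.0146), Pole3 (−0.20, adjusted p = 0.0214) and the exonuclease gene Exo1 (−0.26, adjusted p = 0.0337). DESeq2 called 3 lower and 0 higher, and the edgeR count was 1 without siIRF1 replicate 3 and 2 without siNC replicate 1 or 2. The call of Exo1 was lost with DESeq2 (adjusted p = 0.0683), with upper-quartile scaling (0.0524) and without any 1 library other than siIRF1 replicate 2 (0.0522 to 0.121). That of Pole3 was lost without siIRF1 replicate 3 (0.0963) or siNC replicate 1 (0.0563) or 2 (0.0930), and that of Rpa1 without siIRF1 replicate 3 (0.0660) or siNC replicate 3 (0.0717).

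**Figure D4:**
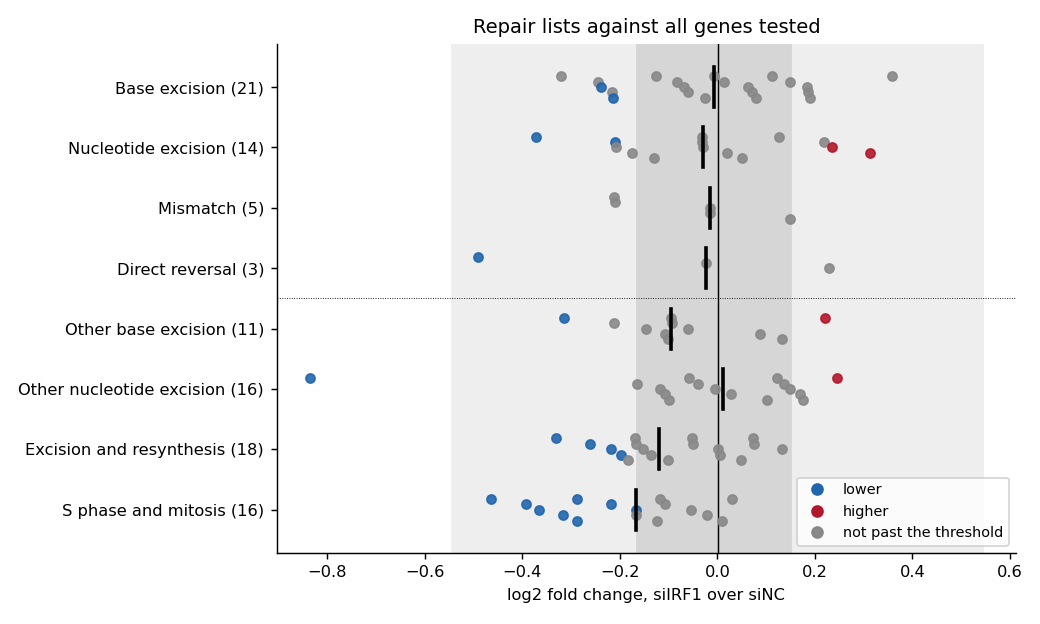
Log2 fold change, siIRF1 over siNC, of every gene in the 4 member lists (above the dotted line) and in 4 further lists (below it), with black bars at the median of each list; the dark and light grey bands hold the middle of all genes tested, from the 25th to the 75th and from the 5th to the 95th percentile. The medians of the member lists lie between −0.03 and −0.01 and that of the S phase and mitosis list at −0.17, and Hmgn1 at −0.83 lies outside the bands.

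In the annotation 21 of the 43 members share exon bases with another gene, 19 of them with a gene on the opposite strand. In 6 the part shared with a single opposite-strand gene exceeds 20% of the member's exon bases. Beside Apex1, Lig3 and Ddb2 these are Fen1 (78.8%, with the weakly counted Gm10143), Mpg (42.5%, with Nprl3, at a log2 fold change of −0.25) and Alkbh2 (29.5%, with Usp30). Ercc2 shares 18.1% with Gm26852 and 16.4% with Klc3, both on the opposite strand. The strand setting of the counting is not given in the sources used here, so whether the reads of such pairs were separated is not known. Ung and Alkbh2 lie 2167 bases apart on chromosome 5 and gave 0.19 and 0.23, and Ercc1 and Ercc2 lie 25485 bases apart on chromosome 7 and gave 0.24 and 0.05. Farther apart, Parp2 and Apex1 lie 103666 bases from each other on chromosome 14 (−0.21 and −0.01), and Fen1 and Ddb1 lie 401157 bases from each other on chromosome 19 (−0.13 and −0.03).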

How the data were processed

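RNA-seq was read from 6 libraries. The authors deposited 1 table of raw counts per library, whole numbers with no normalisation. The submitters' processing notes name FastQC, Trimmomatic 0.39 and STAR, with the build GRCm39 (mm39), and the labels' protocols name the TruSeq Stranded mRNA kit. Which tool counted the reads, on which annotation and with which strand setting, was not stated in any source used here. The 43 members and all gene lists were chosen with earlier results of these data known.

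The test used edgeR 4.0.16 under R 4.3.3. filterByExpr with the group kept 14683 genes, with 99.914% or more of the total of every library. Scaling was by TMM, and siIRF1 was compared with siNC by the quasi-likelihood test (robust, two-sided, group as the only term), with Benjamini-Hochberg adjustment over all genes tested and a threshold of 0.05. The SE is the absolute log2 fold change over the square root of F, and the 95% interval uses the model's degrees of freedom. The test was checked on simulated counts. DESeq2 1.42.0, other scalings, filters and a replicate block were alternatives, as was leaving out each library. Values per library were given for members past the threshold, for members with an unadjusted p under 0.05 and for the highest member per exon length of each pathway; Parp1 was added after its values were seen.

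Exon lengths, positions and transcript sequences came from GENCODE M21, a GRCm38 annotation (the authors' build was GRCm39), and were joined by gene identifier (14653 of the tested genes matched, and all 43 members). Promoters came from RefSeq (GRCm38.p6) by symbol. Same-group libraries gave a chi-square of 5.76 to 16.6 per degree of freedom, so none was a copy of another.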

Additional observations from a re-analysis of the deposited data

How the results depend on the processing

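Over 13 alternatives the 43 members gave 558 values, of which 537 stayed on the same side of the threshold, 19 lost a call and 2 gained one, and 0 called members changed sign. Lig3, Ercc4 and Gtf2h1 were called under every alternative, and Irf1 ranged from −1.17 to −1.04 on the log2 scale when 1 library was left out. With DESeq2 and with upper-quartile scaling, base excision repair had 1 lower gene and direct reversal 0. When 1 library was left out, lower genes numbered 1 to 2 in base excision repair, 1 to 3 in nucleotide excision repair, 0 to 1 in mismatch repair and 0 to 1 in direct reversal, and higher genes in nucleotide excision repair 1 to 2. Over all genes tested these fits called 959 to 1398 higher (959 without siIRF1 replicate 3, 980 without siNC replicate 2) and 1276 to 1716 lower, in designs with fewer samples. The median of the mismatch repair genes was −0.10 without siIRF1 replicate 2, and the cause was not tested.

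With the replicate number as a block the fit called 1744 genes higher and 1984 lower and changed no member's call. Same-numbered libraries did not deviate together (correlations of 0.195, −0.0446 and 0.0523), so the numbers were not taken as a pairing. The fewest counts, 219 in all for Neil2, limit that gene to an SE of 0.24, and the stricter filter left it untested.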
